A study of Mus musculus with 72 samples.

Results

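The cerebellum of nursing mice was compared with that of pregnant mice. The members were chosen by label alone: all cerebellum libraries of stages PP1, PP3 and PP10 (9 libraries, with names that begin CP) against all cerebellum libraries of stages PC14 and PC16 (6 libraries, CE), which is 15 of the 72 libraries of the series. All 15 came from C57BL/6J females that had not carried a litter before and were mated to C57BL/6J males, with 3 mice per stage and 1 library per mouse. The mice had been bought as young adults, and no age at dissection is given for a single mouse. PC14 and PC16 count days after the vaginal plug. The plug day itself is day 1 in the sample labels and day 0 in the study's methods, so the stage of pregnancy is known to within a day. PP1, PP3 and PP10 are dams 1, 3 and 10 days after birth. Each mouse also gave the hippocampus, hypothalamus and neocortex. Virgin cerebellum, 3 libraries, took no part in the main fit, because a pair of them carries a bias with transcript length.

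The cerebellum is a layered structure of densely packed granule cells, whose axons (the parallel fibres) excite the Purkinje cells, the only output neurons of its cortex. Bergmann glia, a radial kind of astrocyte, wrap the Purkinje cell synapses, while astrocytes elsewhere line blood vessels with end-feet that carry the water channel aquaporin 4. Around birth, placental and ovarian hormones fall, and suckling then keeps prolactin and oxytocin high. The question put to these data was which transcripts differ in the cerebellum between the later part of pregnancy and nursing.

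Levels are CPM, the reads counted to a gene scaled to a common library total with TMM factors. Differences are log2 changes with their standard error (SE), and a gene is called where edgeR's quasi-likelihood test gave a Benjamini-Hochberg adjusted p under 0.05. CPM is not divided by gene length, so levels are compared between mice and not between genes. Libraries held 9889747 to 13466100 counts (median 11194498). The markers of the tissue were in place. All 15 granule cell and all 17 Purkinje cell markers passed the filter on low values, Gabra6 was at 374.2 CPM or more and Pcp2 at 536.1 CPM or more in each library, and 11 of the 15 matched markers of the neighbouring brainstem and midbrain were under 1 CPM. Because this is whole tissue, fewer cells of a type and less RNA per cell cannot be told apart in any of the values that follow.

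Before the comparison, 2 pregnancy libraries stood apart. CE1467 (PC14) and CE1655 (PC16) held very little RNA of the choroid plexus, the secretory tissue that lies against the cerebellum in the roof of the fourth ventricle. Transthyretin (Ttr), its most abundant product, was at 14.3 CPM in CE1467 and 10.1 in CE1655, against 1193.8 to 2660.8 CPM in the other 13 libraries. The summed level of the choroid plexus markers was 156.6 and 152.5 CPM in these libraries and 1909.3 to 4062.0 in the others. The fit was therefore repeated without these 2 libraries, and calls of named genes that were lost or gained in that fit are stated. Blood and activity-linked transcripts also varied inside the pregnancy group. The summed blood markers ran from 488.2 to 1545.6 CPM in PC and from 367.2 to 894.1 CPM in PP. The labels give no date of dissection or sequencing, and a batch that followed stage cannot be told apart from stage.

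In PP against PC, 212 of 13767 genes tested were called, which is 1.54% of them. There were 78 genes higher (0.567%) and 134 lower (0.973%) after birth. The changes were small. The median size among called genes was 0.18 on the log2 scale, 10 genes passed 0.5 and 1 passed 1, and the median over all genes tested was -0.001. For 65 of the called genes (25 higher, 40 lower) no PP library overlapped any PC library, against 0.588% of all genes tested that were apart in this way. The list was sensitive to single mice: leaving out 1 library at a time gave 82 to 254 calls, and 60 genes were called in all 15 such fits. Without CE1467 and CE1655 together there were 53 calls, 50 of them among the 212.

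The lowest adjusted p values belonged to transcripts that fell, and several of these are products of astrocytes and Bergmann glia. Aqp4, which encodes the water channel of astrocyte end-feet (GRCm38 chromosome 18, 15389496 to 15410982), had a lowest, median and highest level of 380.7, 392.8 and 415.2 CPM in the 6 PC libraries. In the 9 PP libraries these were 277.8, 299.2 and 330.0 CPM. Every nursing mouse was below every pregnant mouse. The log2 change was -0.40 (SE 0.032, adjusted p = 9.6e-07), or 24.1% lower, and without CE1467 and CE1655 it was -0.38.

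Hopx (chromosome 5, 77086988 to 77115121) encodes a small homeodomain protein that binds no DNA itself and marks radial astrocytes, Bergmann glia among them. Its level was 171.2, 183.3 and 193.2 CPM (lowest, median, highest) in PC and 138.2, 145.6 and 153.0 CPM in PP, with no overlap. The change was -0.32 (SE 0.028, adjusted p = 1.6e-06). Hopxos, an antisense gene over the same stretch, changed by -0.30, and since the libraries keep no strand its reads cannot be told apart from those of Hopx.

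Gfap, the intermediate filament protein of astrocytes (chromosome 11, 102887336 to 102900912), showed the largest fall of any called gene with a mean of at least 1 CPM and the same direction in all 6 pairs of a PP stage with a PC stage. PC libraries were at 332.9, 336.5 and 460.0 CPM (lowest, median, highest) and PP libraries at 202.6, 219.0 and 321.5 CPM. The groups were apart by a narrow margin that a single nursing mouse set: CP1063 (PP10) was at 321.5 CPM, and the other 8 were at or below 228.4 CPM. The change was -0.66 (SE 0.077, adjusted p = 9.4e-05), or 36.6% lower.

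Gja1, which encodes connexin 43 of astrocyte gap junctions, was at 296.4, 330.9 and 340.4 CPM in PC and 245.8, 279.9 and 293.4 CPM in PP. Its change was -0.24 (SE 0.033, adjusted p = 0.0012), with the groups apart. Aqp4, Hopx, Gfap and Gja1 were called in all 15 fits that left out a library, and in the fit without CE1467 and CE1655.

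**Figure D1:**
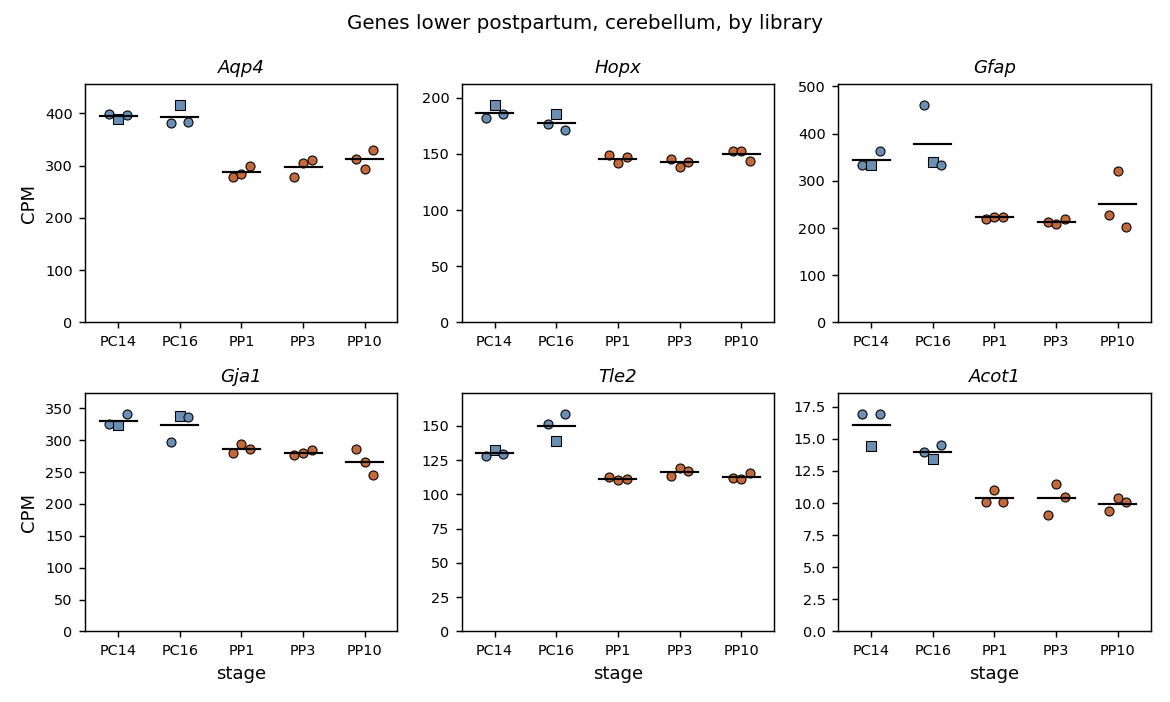
CPM of genes lower after birth in each of the 15 cerebellum libraries (vertical axis), by stage along the horizontal axis; points are mice, short bars are stage means of 3 mice, and squares mark CE1467 and CE1655. Each PP library of Aqp4 and of Hopx lies below each PC library, and the Gfap point of CP1063 (321.5 CPM) lies far above the other PP libraries.

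No other marker on the astrocyte list was called. Of the 20 Bergmann glia and astrocyte markers tested, 0 were higher, 4 were lower and 16 were not called, where 0.973% of all genes tested were called lower. In the list 15 changes were negative and 5 positive, with a median of -0.03 beside -0.001 over all genes. Gdf10 was at -0.14 (adjusted p = 0.12) and Aldh1l1 at -0.10, neither of them called. The summed level of the list overlapped between the groups, at 10001.9 to 10466.3 CPM in PC and 9355.7 to 10187.7 CPM in PP. The glutamate transporter Slc1a3 was at +0.06 (adjusted p = 0.22), the transporter Slc1a2 at -0.02, the glycolytic enzyme Aldoc at 0.02 and the calcium-binding protein S100b at -0.03, none of them called. Fgfr3, a receptor of mature astrocytes, was at 0.09 (adjusted p = 0.20).

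Of the metallothioneins, small metal-binding proteins that are abundant in astrocytes, Mt1 and Mt3 were called lower and Mt2 was not. Mt1 was at 331.8 to 396.0 CPM in PC and 255.4 to 345.8 CPM in PP, a change of -0.26 (SE 0.05, adjusted p = 0.013), and adjusted p was 0.056 without CE1467 and CE1655. Mt3 changed by -0.19 (adjusted p = 0.019, and 0.079 without those libraries), and Mt2 was at -0.28 with an adjusted p of 0.07. Mt1 and the stress-induced Ddit4 (-0.16, adjusted p = 0.04) were the 2 called members of 22 glucocorticoid-responsive genes, whose median was -0.01. Of all genes tested, 0.973% were called lower. Without CE1467 and CE1655 none of the list was called (Ddit4 -0.11, adjusted p = 0.26). Il33, a nuclear cytokine of glia, changed by -0.33 (adjusted p = 0.013, and 0.078 without those libraries). Il33, Mt2 and Mt3 were picked after their values were seen.

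Tle2, a transcriptional corepressor (chromosome 10, 81574561 to 81590845), had the third lowest adjusted p. It was at 127.7, 135.5 and 158.3 CPM in PC and 110.3, 112.5 and 119.4 CPM in PP. The groups did not overlap, and the change was -0.29 (SE 0.029, adjusted p = 9.5e-06). The highest nursing mouse, at 119.4 CPM, was only a little below the lowest pregnant one.

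Acot1, a cytosolic thioesterase that splits long-chain acyl-CoA, was at 13.4 to 16.9 CPM in PC and 9.08 to 11.5 CPM in PP, with a change of -0.55 (SE 0.065, adjusted p = 9.4e-05). It has close paralogs beside it on chromosome 12, between which reads may have been split. Acer2, a ceramidase of the Golgi, changed by -0.50 (adjusted p = 0.013), and Carns1, which joins histidine to beta-alanine to make carnosine, by -0.46 (adjusted p = 0.013). Both were apart between the groups. Carns1 was still called without CE1467 and CE1655 (adjusted p = 0.039), and Acer2 was not (-0.39, adjusted p = 0.12).

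The remaining large falls were of low or overlapping transcripts. Tbx3, a T-box transcription factor, was at 3.74 to 6.18 CPM in PC and 1.82 to 4.37 CPM in PP (-0.58, adjusted p = 0.031). Igsf1, an immunoglobulin-domain membrane protein, was at 4.96 to 6.74 CPM against 2.69 to 6.21 CPM (-0.58, adjusted p = 0.031). Each of these overlapped between the groups and lost its call in 8 or more of the 15 fits without a library. Vwa7 (-0.34, adjusted p = 0.0032) and Sapcd1 (-0.42, adjusted p = 0.031) lie on opposite strands of chromosome 17 and overlap at their ends, so they may share reads. Cideb, a lipid droplet protein (-0.40, adjusted p = 0.046), and Tnfaip6, a hyaluronan-binding protein (-0.34, adjusted p = 0.037), were called in 4 and 3 of the 15 fits. A gene known here by its Ensembl ID alone, ENSMUSG00000097064, changed by -0.43 (adjusted p = 0.031). Tbx3 (adjusted p = 0.048) and Vwa7 (0.025) were still called without CE1467 and CE1655, and Igsf1 (0.099), Sapcd1 (0.14), Cideb (0.21), Tnfaip6 (0.21) and ENSMUSG00000097064 (0.076) were not.

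Transcripts of fibroblasts of the meninges were among those that rose. Decorin (Dcn), a small proteoglycan of collagen matrix, was at 13.6 ± 1.81 CPM (SD, n = 6, median 13.3) in PC and at 16.5, 19.2 and 22.1 CPM (lowest, median, highest) in PP. The change was +0.50 (SE 0.075, adjusted p = 0.0022), and the groups did not overlap. CE1467 (11.4 CPM) and CE1655 (12.1 CPM) held the lowest levels. Osteoglycin (Ogn), another proteoglycan of that family, was at 5.97, 7.21 and 8.14 CPM in PC and 8.57, 9.86 and 11.8 CPM in PP, also +0.50 (SE 0.086, adjusted p = 0.0043). Both were called in all 15 fits without a library, and without CE1467 and CE1655 the changes were +0.42 (Dcn, adjusted p = 0.017) and +0.45 (Ogn, adjusted p = 0.044).

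The meningeal list as a whole moved little. Of its 16 markers, 2 were higher and 0 lower, where 0.567% of all genes tested were called higher. In the list 13 were positive, and the median was 0.11. The summed level overlapped between PC (1488.5 to 1838.6 CPM) and PP (1538.5 to 2006.4 CPM). The part of dissected meninges in the rise of Dcn and Ogn was not tested.

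Igf2, an imprinted growth factor made by meninges and choroid plexus in the adult brain, went the other way and depended on the libraries used. It was at 299.3 to 346.2 CPM in 4 PC libraries and at 191.6 and 196.3 CPM in CE1467 and CE1655, and the 9 PP libraries were at 217.3, 238.3 and 265.2 CPM. With all libraries the change was -0.21 (SE 0.098, adjusted p = 0.31). Without CE1467 and CE1655 it was -0.41 (adjusted p = 2.2e-06), which is one of 3 calls that the fit without them made and the full fit did not; the others were Htr2c, a serotonin receptor that choroid plexus makes in quantity, and Kmt5c, a histone methyltransferase.

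Molecular chaperones leaned to the higher side after birth. Of 27 heat shock and endoplasmic reticulum (ER) chaperones tested, 25 had a positive change and the median was 0.12 beside -0.001 over all genes. In this list 3 were called higher and 0 lower, where 0.567% of all genes tested were called higher. The summed level overlapped between the groups, at 5247.5 to 6386.4 CPM in PC and 5809.9 to 6754.8 CPM in PP. Hsp90aa1, the inducible cytosolic HSP90, was at 533.6, 552.5 and 571.5 CPM in PC and 577.4, 638.5 and 667.4 CPM in PP, with no overlap. Its change was +0.19 (SE 0.031, adjusted p = 0.0035). Hsp90b1, the HSP90 of the ER lumen, was at 253.1, 293.0 and 325.5 CPM against 315.6, 340.2 and 399.8 CPM, which overlap slightly (+0.28, SE 0.058, adjusted p = 0.018). Hsph1, a nucleotide exchange partner of HSP70, was at 85.0 to 111.0 CPM against 107.8 to 128.0 CPM (+0.20, SE 0.044, adjusted p = 0.024).

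Only Hsp90aa1 among the 27 was called without CE1467 and CE1655 (+0.19, adjusted p = 0.019), when the median of the list was 0.09 and adjusted p was 0.077 for Hsp90b1 and 0.13 for Hsph1. Gm25745, an annotated microRNA gene within Hsp90b1 (+0.34, adjusted p = 0.036, and 0.12 without those libraries), shares its reads with it.

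The promoters of several ER chaperones hold the ER stress response element, through which unfolded protein in the ER raises their transcription. They are shown because 25 of the 27 chaperones had a positive change. Each is the 250 bases before the annotated start in RefSeq (GRCm38.p6), 5′ to 3′ in the sense of the gene, and capitals mark matches on either strand to CCAAT, any 9 bases and CCACG.
Hsp90b1, chr10:86705445-86705694, minus strand: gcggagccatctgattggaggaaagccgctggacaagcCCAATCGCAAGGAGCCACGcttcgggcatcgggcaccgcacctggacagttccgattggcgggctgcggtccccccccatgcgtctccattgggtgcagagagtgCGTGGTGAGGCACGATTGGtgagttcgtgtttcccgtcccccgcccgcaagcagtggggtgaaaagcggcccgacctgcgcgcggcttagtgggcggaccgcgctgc
Hspa5, chr2:34771840-34772089, plus strand: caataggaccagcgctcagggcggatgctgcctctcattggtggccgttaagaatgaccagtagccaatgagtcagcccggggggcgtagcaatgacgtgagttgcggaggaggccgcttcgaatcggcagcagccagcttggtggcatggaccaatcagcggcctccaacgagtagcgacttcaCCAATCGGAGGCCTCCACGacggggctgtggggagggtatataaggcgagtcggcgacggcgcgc
Pdia6, chr12:17266339-17266588, plus strand: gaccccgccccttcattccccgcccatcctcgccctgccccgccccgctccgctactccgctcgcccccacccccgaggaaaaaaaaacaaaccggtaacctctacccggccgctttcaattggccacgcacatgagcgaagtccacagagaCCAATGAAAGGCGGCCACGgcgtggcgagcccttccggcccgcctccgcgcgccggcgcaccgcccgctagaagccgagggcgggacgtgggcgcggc
Calr, chr8:84846932-84847181, minus strand: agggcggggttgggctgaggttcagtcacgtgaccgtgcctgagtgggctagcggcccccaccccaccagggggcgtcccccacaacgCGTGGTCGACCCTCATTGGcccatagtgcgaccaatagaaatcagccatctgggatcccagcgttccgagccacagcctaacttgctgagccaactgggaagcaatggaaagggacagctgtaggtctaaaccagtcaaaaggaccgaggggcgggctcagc

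Of the 27 list members, 23 matched a promoter in the table, and 6 of these (Calr, Canx, Creld2, Hsp90b1, Hspa5 and Pdia6) held the element, which 33 of 27025 promoters of the same length hold (0.122%). Hsp90b1 alone in the table held 2 matches. Of the 6, Hsp90b1 was called. Hspa5, the main HSP70 of the ER, was at +0.21 (adjusted p = 0.27), Pdia6, a disulfide isomerase, at +0.24 (adjusted p = 0.14), and Calr, a calcium-binding lectin chaperone, at +0.16 (adjusted p = 0.26). Canx was at +0.11 and Creld2 at +0.19. A match describes the letters of the promoter and is no evidence that a factor was bound there. ER chaperones are known for this element, as said above, so its share in the list says nothing about the change after birth.

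The promoter of Hsph1 is shown for the cytosolic arm, with capitals on its match to TTCNNGAA, a pair of inverted heat shock units.
Hsph1, chr5:149636337-149636586, minus strand: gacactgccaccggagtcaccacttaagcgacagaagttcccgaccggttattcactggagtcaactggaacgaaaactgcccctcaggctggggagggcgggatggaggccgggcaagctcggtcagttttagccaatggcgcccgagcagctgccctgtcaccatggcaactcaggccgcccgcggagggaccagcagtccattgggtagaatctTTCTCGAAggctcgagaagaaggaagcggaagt
Such a pair stands in 1920 of the 27025 promoters (7.1%) and in 2 of the 23 of the list, Hspe1 and Hsph1, so the share in the list is near that of all promoters.

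**Figure D2:**
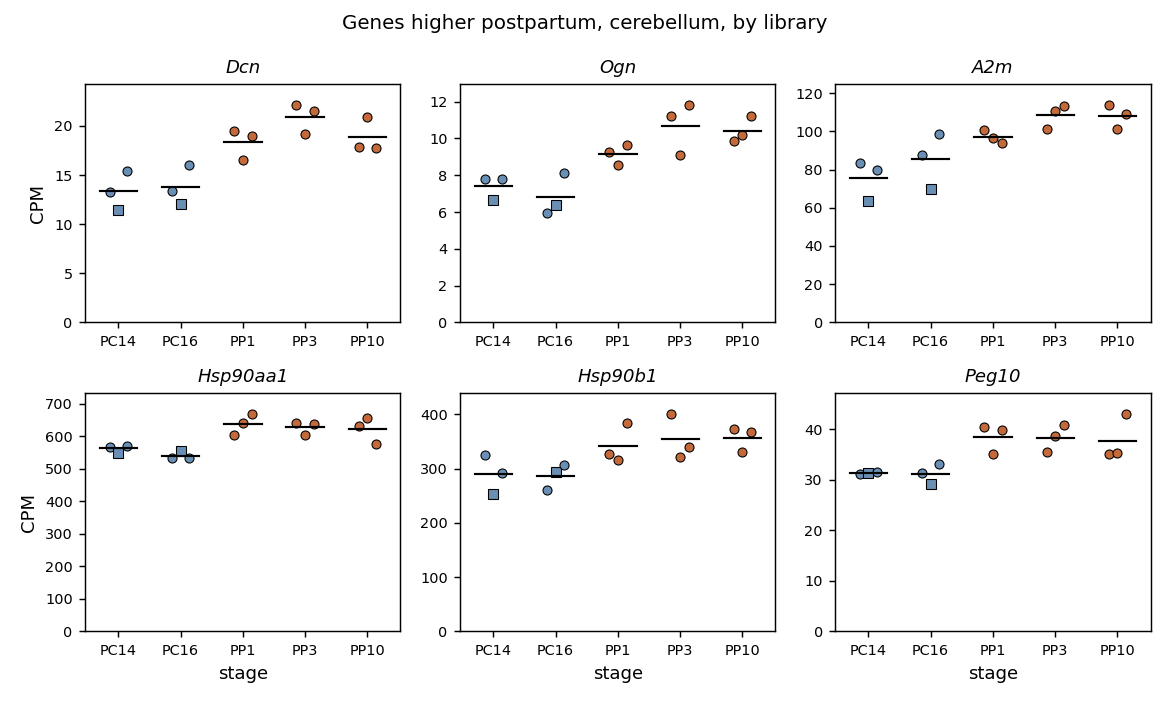
CPM of genes higher after birth in each of the 15 cerebellum libraries (vertical axis) by stage (horizontal axis); points are mice, short bars are stage means of 3 mice, and squares mark CE1467 and CE1655. The PP libraries of Dcn (16.5 to 22.1 CPM), Ogn and Hsp90aa1 all lie above the PC libraries.

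Other rises were of single genes. A2m, the protease inhibitor alpha-2-macroglobulin, was at 63.6, 81.5 and 98.5 CPM in PC and 93.7, 101.4 and 113.6 CPM in PP (+0.37, SE 0.062, adjusted p = 0.0035), and at +0.26 (adjusted p = 0.0053) without CE1467 and CE1655. Peg10, a paternally expressed gene derived from a retrotransposon, was at 29.2 to 33.0 CPM against 35.1 to 42.9 CPM, with no overlap (+0.29, SE 0.052, adjusted p = 0.0079). Vav3, a guanine nucleotide exchange factor that cerebellar neurons express, was at +0.39 (adjusted p = 0.018), and Opn3, a light-sensitive opsin, at +0.38 (adjusted p = 0.018). Neither had groups apart. None of these 3 kept its call without CE1467 and CE1655, where adjusted p was 0.056 for Peg10 (+0.27), 0.078 for Vav3 and 0.07 for Opn3.

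The largest rise, and the only called change over 1 on the log2 scale, was Xlr3b, an X-linked gene with near-identical copies between which reads may be shared. It was at 0.981, 1.61 and 6.39 CPM in PC and 2.98, 5.83 and 9.36 CPM in PP. The groups overlapped, and the change was +1.41 (SE 0.277, adjusted p = 0.013). Ctf1, a cytokine of the interleukin 6 family, was at 0.518 to 1.96 CPM against 1.52 to 2.41 CPM (+0.84, adjusted p = 0.045) and was called in 2 of the 15 fits without a library. The unnamed genes ENSMUSG00000085455 (+0.84, adjusted p just under the threshold) and ENSMUSG00000097865 (+0.39, adjusted p = 0.041) were called in 1 and 3 of them. Xlr3b kept its call without CE1467 and CE1655 (+1.54, adjusted p = 0.038), and Ctf1 (0.22), ENSMUSG00000085455 (0.22) and ENSMUSG00000097865 (0.17) were not.

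Of 17 Purkinje cell markers, 3 were higher and 0 lower, where 0.567% of all genes tested were called higher. The median of the list was 0.04 beside -0.001 over all genes, and 14 members had a positive change. Kitl, the ligand through which Purkinje cells signal to interneurons bearing Kit, was at 110.1, 126.9 and 134.0 CPM in PC and 129.8, 139.4 and 142.9 CPM in PP (+0.15, adjusted p = 0.031), and Slc1a6, the glutamate transporter of Purkinje spines, was at +0.13 (adjusted p = 0.031). Without CE1467 and CE1655, Kitl was the only Purkinje cell marker called (+0.17, adjusted p = 0.046). Pcp2, a protein of Purkinje cells in this tissue, was at -0.08 (adjusted p = 0.24).

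Of 15 granule cell markers, 1 was higher and 0 were lower, where 0.567% of all genes tested were called higher. The median of the list was -0.03. Cadps2, a priming factor for dense-core vesicles, was at 214.9 to 244.3 CPM against 226.9 to 271.7 CPM (+0.15, adjusted p = 0.04), and it was not called without CE1467 and CE1655 (adjusted p = 0.079). The granule cell GABA-A subunits Gabra6 (0.07) and Gabrd (0.02) were not called. None of the 16 GABA-A receptor and chloride or GABA transport genes, 13 interneuron markers and 25 parallel fibre synapse genes was called, with medians of 0.02, 0.04 and 0.00. Of 23 potassium channel genes, 1 was called, where 0.973% of all genes tested were called lower. It was Kcnq3, a subunit of the M-current channel, at 28.5 to 32.2 CPM in PC and 23.8 to 27.7 CPM in PP. The groups did not overlap (-0.24, SE 0.046, adjusted p = 0.013). Without CE1467 and CE1655 Kcnq3 was at -0.20 (adjusted p = 0.11).

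Oligodendrocyte transcripts moved in both directions. Of 19 myelin markers, 2 were higher, 4 were lower and the median was -0.06. Of all genes tested, 0.567% were called higher and 0.973% lower. Mal, a lipid raft protein of compact myelin, was at 153.2, 158.8 and 171.3 CPM in PC and 130.7, 137.8 and 155.7 CPM in PP (-0.22, SE 0.037, adjusted p = 0.0043). Cldn11, the tight junction protein of myelin (-0.18, adjusted p = 0.023), Mobp (-0.19) and Mbp, a major protein of compact myelin (-0.15, adjusted p = 0.038), were the other falls. Ugt8a, which makes the myelin lipid galactosylceramide, rose by 0.18 (adjusted p = 0.031), and Cryab, a small heat shock protein, by 0.17.

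Without CE1467 and CE1655, Mal (-0.20, adjusted p = 0.032) and Ugt8a (+0.22, adjusted p = 0.036) were the only myelin markers called. Ptprz1, a receptor phosphatase of precursors and glia, was at 170.4 to 199.2 CPM against 195.0 to 222.2 CPM (+0.18, adjusted p = 0.02). It was the only one called of 12 precursor markers, where 0.567% of all genes tested were called higher.

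The endothelial, VEGF, matrix and lipid lists held 1 call each, where 0.973% of all genes tested were called lower. Kdr, the main VEGF receptor of endothelium, was at 12.7, 17.0 and 18.6 CPM in PC and 11.4, 13.3 and 15.4 CPM in PP (-0.32, SE 0.072, adjusted p = 0.031), and it was the only call among 18 endothelial markers and among 18 genes of VEGF and hypoxia. Mmp14, a membrane-bound matrix protease, was at 24.5 to 27.6 CPM against 17.5 to 24.1 CPM, with no overlap (-0.27, adjusted p = 0.0088), and was the only call among 17 matrix genes. Fads1, a desaturase of polyunsaturated fatty acids, was at 229.3 to 245.4 CPM against 209.8 to 223.1 CPM, again apart (-0.13, adjusted p = 0.0088), in a list of 26 cholesterol and lipid genes of which 21 were negative with a median of -0.06. All 3 kept their calls without CE1467 and CE1655.

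Of the imprinted genes other than Peg10, Peg3, a zinc finger gene linked in mice to maternal care, was at 372.5, 404.9 and 418.6 CPM in PC and 317.5, 349.4 and 415.9 CPM in PP (-0.18, adjusted p = 0.031). CP1071 alone among nursing mice was inside the PC range, at 415.9 CPM. The change of Peg3 was -0.20 without CE1467 and CE1655 and missed the threshold (adjusted p = 0.058). Rpl3 (-0.20, adjusted p = 0.031) was the only call among 32 ribosomal protein genes, and Cirbp, a cold-inducible RNA-binding protein (-0.24, adjusted p = 0.043), the only one of 5 of its kind. The share called lower among all genes tested was 0.973%. Against PC, Cirbp was at -0.37, 0.06 and -0.40 at PP1, PP3 and PP10. Neither Rpl3 (adjusted p = 0.17) nor Cirbp (0.19) was called without CE1467 and CE1655.

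Several groups that vary with hormones, handling or dissection had no calls, with the percentage called among all genes at 1.54%. The 19 choroid plexus markers tested were all positive with a median of 0.75, and of 0.27 without CE1467 and CE1655. Prlr, the prolactin receptor, belongs to that list. It was at 0.829 CPM in CE1467 and 1.5 CPM in CE1655 and at 32.8, 34.9, 44.0 and 42.1 CPM in the other PC libraries, and PP libraries were at 15.9, 38.4 and 58.5 CPM (lowest, median, highest).

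The change of Prlr was +0.32 (SE 0.36, adjusted p = 0.72) with all libraries and -0.20 (adjusted p = 0.43) without those 2. With the summed choroid plexus level, a sum that includes Prlr itself, as a covariate it was -0.51 (adjusted p = 0.041). Its direction therefore depended on how choroid plexus RNA was treated. None of 13 prolactin and STAT5 genes was called (median 0.02), and Oxtr, the oxytocin receptor, was below the filter on low values.

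Early-response genes were lower on median (-0.21) with 0 of 23 called. Fos, an AP-1 subunit induced by activity, was at 42.5, 70.5 and 51.6 CPM in the 3 PC14 libraries and at 2.29 (CE1654), 10.3 (CE1655) and 34.3 CPM (CE1658) in those of PC16. The PP libraries were at 7.9, 16.3 and 24.2 CPM (lowest, median, highest), below each PC14 library and inside the range of PC16. The change was -0.85 (SE 0.275, adjusted p = 0.13). The blood markers were lower by a median of -0.41 with 0 of 10 called, and Hbb-bs, an adult beta globin, was at 94.0 to 402.8 CPM in PC and 65.7 to 208.5 CPM in PP (-0.77, adjusted p = 0.11). Circadian clock genes had 0 of 22 called and a median of 0.00, nuclear oxidative phosphorylation genes 0 of 29 and 0.00, mitochondrial ones 0 of 13 and -0.07, and microglial markers 0 of 17 and -0.05.

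**Figure D3:**
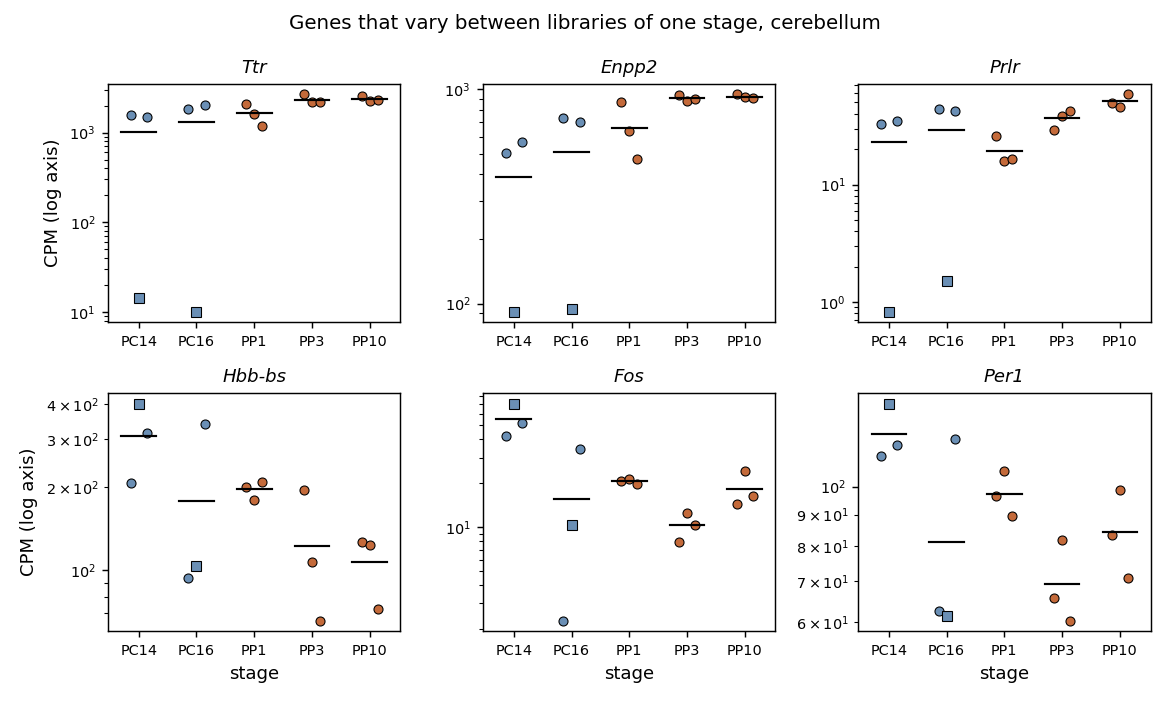
CPM on log axes (vertical) of 6 transcripts whose level varied between mice of a stage, by stage (horizontal axis); points are mice, short bars are stage means of 3 mice, and squares mark CE1467 and CE1655. Ttr is at 14.3 and 10.1 CPM in the 2 marked libraries, where Prlr and the choroid plexus enzyme Enpp2 are low as well, while Fos, Per1 and Hbb-bs spread widely within PC16.

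**Figure D4:**
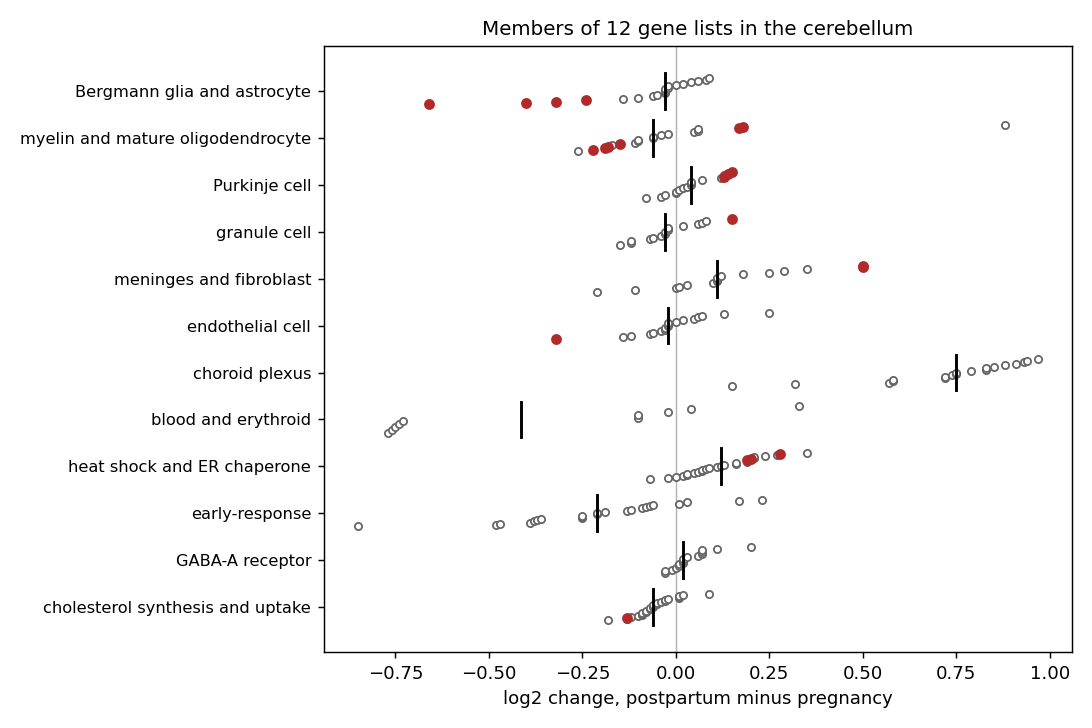
Log2 change of PP against PC in the cerebellum (horizontal axis) for the tested members of 12 of the gene lists (rows); filled red points are called genes, open points are not, and black bars are list medians. The choroid plexus list lies to the right (median 0.75) with 0 called, the chaperones have a median of 0.12, and the astrocyte list is centred near 0 (median -0.03) with Gfap at -0.66.

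The stages after birth were set against pregnancy one by one in the same fit. These 3 comparisons share the 6 PC libraries, so their values are not independent. PP1 gave 23 calls (0.167% of genes tested), PP3 gave 83 (0.603%) and PP10 gave 70 (0.508%). Aqp4 was at -0.46, -0.40 and -0.34 at PP1, PP3 and PP10, Hopx at -0.32, -0.36 and -0.28, and Gfap at -0.70, -0.75 and -0.52. The genes called at each of the 3 stages were Aqp4, Hopx, Hopxos, Tle2, Gfap, Acot1 and Tmem145, a membrane protein that was at 143.5 to 166.9 CPM in PC and 120.5 to 130.5 CPM in PP.

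No gene passed the test of any difference among PP1, PP3 and PP10 (0 of 13767, 0.0%, edgeR quasi-likelihood; 1420 at an unadjusted p under 0.05). The same comparison in DESeq2 called 43. By the edgeR test, a fall that looks larger at one stage, such as that of Mmp14 (-0.17, -0.19 and -0.44 in order of stage), was not shown to differ between stages. Inside pregnancy, PC16 against PC14 gave 3 calls (0.0218%): Nfil3, a clock-linked repressor (-0.40, adjusted p = 0.038), Fosl2, an AP-1 subunit (-0.98, adjusted p = 0.043), and Gm26699, a noncoding gene (+0.59, adjusted p = 0.038).

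The other regions of the same mice were used to ask which changes differ in the cerebellum, in a fit of 60 libraries. The difference between the change in the cerebellum and the mean change of the other 3 regions was called for 13 of 15276 genes (0.0851%), 3 higher (0.0196%) and 10 lower (0.0655%) in the cerebellum. Of these, 9 were called in PP against PC too. Each mouse gave all 4 regions, and with the mouse as a block in the model 10 of the 13 were called, 3 were not and 5 others were. Without the mice of CE1467 and CE1655 there were 0 calls by edgeR's quasi-likelihood test (939 genes at an unadjusted p under 0.05), and adjusted p values of the 13 genes were then 0.077 or more.

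The call for astrocyte transcripts depended on the gene and on the block. In that fit Aqp4 changed by -0.40 in the cerebellum (SE 0.038), -0.24 in the hippocampus, -0.51 in the hypothalamus and -0.27 in the neocortex, each of them called. The difference of the cerebellum from the others was -0.06 (adjusted p = 0.79). Hopx changed by -0.36 in the hippocampus, -0.48 in the hypothalamus and -0.64 in the neocortex. Gfap changed by -0.34 in the hippocampus (adjusted p = 0.021), -0.17 in the hypothalamus (adjusted p = 0.48) and -0.36 in the neocortex (adjusted p = 0.014), and its difference from the other regions was -0.37. That difference missed the threshold without the mouse as a block (SE 0.092, adjusted p = 0.11) and passed it with the block (SE 0.066, adjusted p = 0.011), and without the mice of CE1467 and CE1655 it was -0.38 (adjusted p = 0.37).

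The mouse block also brought in Fos, with a difference of -0.65 (adjusted p = 0.026, against 0.63 without the block). The other calls gained were Smarca2, a chromatin remodelling ATPase (-0.15, adjusted p = 0.019), the mitochondrial transfer RNA gene mt-Ts1, which overlaps mt-Co1 (-0.21, adjusted p = 0.026), and the unnamed gene ENSMUSG00000045999 (-0.35, adjusted p = 0.02).

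The metallothionein Mt1 moved by like amounts in each region, at -0.26 in the cerebellum, -0.32 in the hippocampus, -0.30 in the hypothalamus and -0.24 in the neocortex, all called, with a difference of 0.03 (adjusted p = 0.95). Acot1 was at -0.55 in the cerebellum, -0.45 in the hypothalamus and -0.50 in the neocortex, and at -0.24 in the hippocampus. Gja1 was called in the cerebellum (-0.24) and neocortex (-0.22) and not in the hippocampus or hypothalamus (-0.12 in each), and the difference between the cerebellum and the others was not called (-0.09, adjusted p = 0.47). Hsp90aa1 was higher in the cerebellum (+0.19) and hippocampus (+0.13, adjusted p = 0.03), and at 0.06 and 0.05 in the hypothalamus and neocortex. Hsph1 was called in the cerebellum (+0.20), hippocampus (+0.20, adjusted p = 0.0018) and neocortex (+0.17, adjusted p = 0.011), and was at +0.12 in the hypothalamus (adjusted p = 0.11). Hsp90b1 was called in the cerebellum (+0.28) and not in the hippocampus (+0.13), hypothalamus (+0.07) or neocortex (+0.09). In this fit Dcn (+0.50, SE 0.246, adjusted p = 0.37) and Ogn (+0.50, SE 0.374, adjusted p = 0.62) were not called in the cerebellum. Dcn was at +0.42 in the hippocampus, -0.27 in the hypothalamus and +0.17 in the neocortex, none of them called.

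Genes called both in the cerebellum and for the difference were Kcnq3, Camk1d, a calcium-dependent kinase, Ttc9b, a tetratricopeptide repeat protein, Mmp17, a membrane-anchored protease, and Ly6e, a lipid-anchored surface protein, among the falls. Kcnq3 changed by -0.24 in the cerebellum and by 0.01, -0.01 and 0.04 in the hippocampus, hypothalamus and neocortex, a difference of -0.25 (SE 0.05, adjusted p = 0.025). Ttc9b was at 53.5 to 61.3 CPM in PC and 43.9 to 55.4 CPM in PP (-0.24, adjusted p = 0.003), with a difference of -0.24 (adjusted p = 0.049), and it overlaps Map3k10 on the other strand.

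Among the rises, Ccnd2, a cyclin of the first gap phase of the cell cycle, was at 9.82, 15.4 and 17.2 CPM in PC and reached a median of 19.2 and a highest level of 23.3 CPM in PP, with its lowest values in CE1467 (10.4) and CE1655 (9.82). Its change was +0.42 (adjusted p = 0.048), and +0.24 (adjusted p = 0.2) without them. The difference from the other regions was +0.55 (SE 0.116, adjusted p = 0.036). Tpd52l1, a coiled-coil protein of vesicle traffic, was at 3.37 to 5.79 CPM against 5.13 to 7.5 CPM (+0.47, adjusted p = 0.046), with a difference of +0.45 (adjusted p = 0.029). Without the 2 libraries the change of Tpd52l1 in the cerebellum was +0.36 (adjusted p = 0.23). Of the falls named above, Ly6e (adjusted p = 0.081) and Mmp17 (0.18) lost their calls too. So did Kcnq3, whose value without them is given with the potassium channels.

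**Figure D5:**
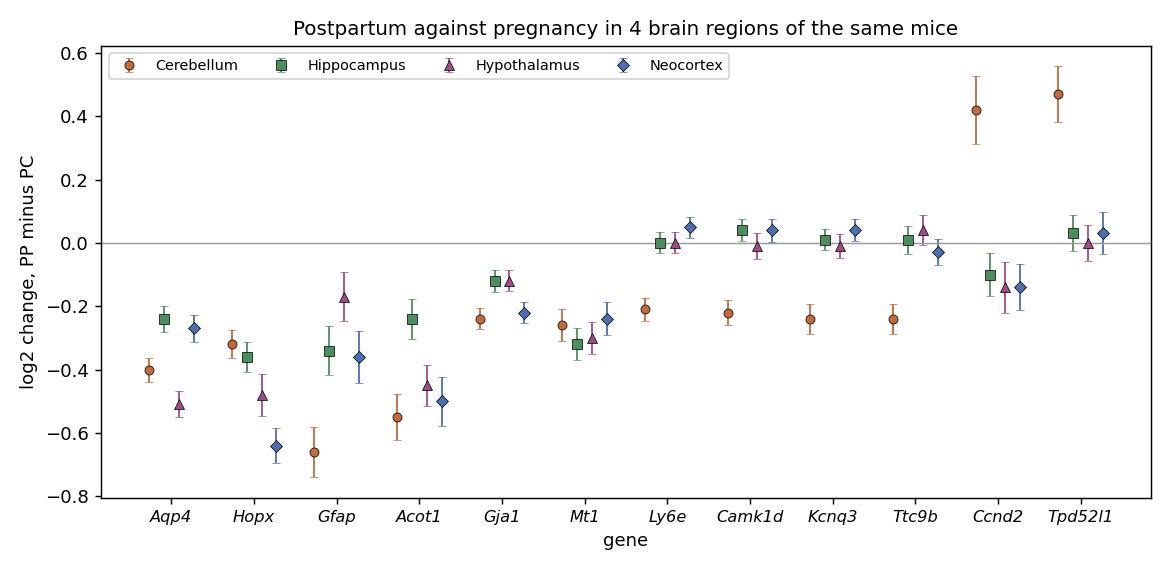
Log2 change of PP against PC with its SE (vertical axis, from the fit of 60 libraries) for named genes (horizontal axis) in the cerebellum and the other 3 regions. Aqp4 and Hopx are below 0 in each region, while Kcnq3, Ttc9b and Ccnd2 are away from 0 in the cerebellum and differ there from the mean of the others.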

How the data were processed

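RNA was isolated from flash-frozen cerebellum with TRIzol, 5 µg was used per library, ERCC spike-ins were added, and libraries were made with an unstranded kit. According to the study's methods and processing notes, the authors trimmed reads with Trimmomatic 0.32, kept those of at least 50 bases, aligned them with TopHat2 2.0.8 to GRCm38 and summarized them per Ensembl gene with easyRNASeq. The deposited counts are raw whole numbers for 39179 genes, of which 37607 matched a symbol. The deposited FPKM values, which the authors made with Cufflinks 2.1.1, were used as a filter only, and blanks (196 genes) were read as 0.

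The model for the 15 libraries had a term for each stage and was run in edgeR (4.0.16, under R 4.3.3) with TMM scaling and the quasi-likelihood F test. A gene was tested if the 3 mice of some stage each reached an FPKM of 1. PP is the mean of 3 stages and PC the mean of 2, and p values were adjusted by Benjamini-Hochberg over all genes tested. The SE is the log2 change divided by the root of F. Regions were compared on 60 libraries with 1 coefficient per region and stage. Here the mouse pairs the libraries by design, since each mouse gave all 4 regions: deviations from the stage mean correlated at -0.0731 to 0.171 between a mouse's cerebellum and its other regions (45 pairs, 6 over 0.1). Within stages, 15 replicate pairs were checked, and none held identical columns (chi-square over its degrees of freedom 1.41 to 5.1). Promoters came from RefSeq (GRCm38.p6) and gene coordinates from GRCm38. The test of PP against PC was also run on simulated counts. These were drawn independently for each gene, so variation shared between genes, such as that of choroid plexus RNA, is not represented in them. Tables used pandas 2.3.3, scipy 1.17.1 and numpy 2.4.6 under python 3.11.15.

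The 37 gene lists, the comparison and the named genes were chosen with earlier results of these data known. The genes named are the 12 largest rises and falls among called genes with a mean of at least 1 CPM and the same direction in all 6 pairs of stages, up to 4 called members of each list (or the 2 highest members where none was called), the 5 largest region differences in each direction, the 3 lowest adjusted p values, and a set fixed by hand. Others named were picked after their values were seen. The alternatives were DESeq2 size factors, TMM over 72 libraries, DESeq2 1.42.0, edgeR's exact test, a fold threshold, other filters, a length trend, 2 groups in place of stages, the virgin libraries in the fit, the mouse as a block, and leaving out each library or stage. Leaving out CE1467 and CE1655, and a choroid plexus covariate, were added after seeing the data. Mice are the replicates. Some results are not reported here.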

Additional observations from a re-analysis of the deposited data

Results flagged for a closer look

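In 12 of 222 groups tested, 1 mouse stood far from the rest of its group, and chance alone flags about 1 in 20 groups. Gfap was at 460.0 CPM in the PC16 library CE1654 (the others 332.9 to 363.8) and at 321.5 CPM in the PP10 library CP1063 (the others 202.6 to 228.4). CE1654 was also the lowest PC library for Gja1, at 296.4 CPM, and for Junb, at 11.6 CPM. CP1071 (PP10), the library with the strongest correlation of levels with transcript length (rank correlation 0.26), was the highest PP library for Igsf1 (6.21 CPM) and Peg3 (415.9 CPM) and the lowest for Atp5b (1362.6 CPM). Ly6e was low in CE1658, at 90.1 CPM. Dbp was high in CP353, at 82.1 CPM, and Pomc in CP156, at 5.23 CPM. In CE1468, H2-D1 was low at 133.1 CPM and Tac1 high at 2.48 CPM.

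The change from pregnancy to nursing differed between the cerebellum and the mean of the other 3 regions, by edgeR's test of the difference itself, for 13 genes, of which 12 are given here. It was more negative in the cerebellum for Ly6e (-0.22), Camk1d (-0.24), Mmp17 (-0.24), Spop (-0.16), Eif1 (-0.15), Kcnq3 (-0.25), Tmcc2 (-0.15), Ttc9b (-0.24) and Dscaml1 (-0.30). It was more positive for Tpd52l1 (+0.45), Ccnd2 (+0.55) and Fam81a (+0.36). For Tmcc2 and Dscaml1 the change in the cerebellum alone was not called in that fit.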

How the results depend on the processing

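The 212 calls of PP against PC became 82 (without CE1467) to 254 (without CP1071) with 1 library left out, and fell to 124 or fewer without any of CE1467, CE1468, CE1654, CE1655, CP146, CP156, CP347, CP357 and CP1052. With a stage left out there were 47 (PC14), 118 (PC16), 126 (PP1), 76 (PP3) and 141 (PP10), with no filter 602, with virgins in the fit (18 libraries) 24, and for a fold over 1.2 there were 0. Without CE1467 and CE1655 there were 53, and with the choroid plexus covariate 49. DESeq2 also called 212, of which 141 were shared. PP1 gave 4 to 53 with 1 library left out, 193 with no filter, 43 with a length trend removed, 4 with 18 libraries and 52 in DESeq2. PP3 gave 9 to 130, and 514 (no filter), 5 (18 libraries), 48 (without CE1467 and CE1655) and 50 (covariate). PP10 gave 10 to 155, and 488 (no filter), 117 (length trend), 0 (18 libraries), 166 (DESeq2), 17 (without CE1467 and CE1655) and 11 (covariate). PC16 against PC14 gave 0 to 85, the highest without CE1658, and 112 (no filter), 0 (18 libraries), 5 (DESeq2) and 0 (without CE1467 and CE1655). Any difference among PP stages gave 0 to 23, the highest again without CE1658, and 321 (no filter), 43 (DESeq2), 3 (without CE1467 and CE1655) and 2 (covariate). The difference between regions gave 0 to 23 calls with 1 mouse left out, 8 with filterByExpr, 0 without the mice of CE1467 and CE1655 and 58 in DESeq2. With the mouse as a replicate block it gave 15, of which 10 were among the 13; 3 were lost, among them Tmcc2 (adjusted p = 0.054) and Fam81a, whose adjusted p came to just over the threshold, and 5 others, Gfap and Fos among them, were gained. Prlr reversed, to -0.51, under the choroid plexus covariate. No other named gene that was called changed its direction. The causes were not tested.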
